A study of Rattus norvegicus with 399 samples.

Results

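Control kidney was set against 4 other control tissues, heart, left lobe of the liver, lung and ovary, to describe the transcripts that set it apart. The kidney libraries were chosen by their labels, which give kidney as the tissue, 0 ppm as the concentration and no quality issue, and 19 of the 399 libraries of the series met this. Of these, 9 came from rats that served as controls for 1,2-dichlorobenzene (1,2-DCB) and 10 from controls for 1,4-dichlorobenzene (1,4-DCB). They were compared with 20 heart, 20 liver, 18 lung and 20 ovary libraries, which made 97 libraries of 20 rats. Of the 100 control libraries, 3 carry a quality mark and were left out, 1 of kidney for its alignment rate and 2 of lung for depth. All were female Sprague-Dawley rats of 9 weeks, sampled on study day 5 and held at 0 ppm of either chemical, so no group here received a chemical or carried a genetic change. The animal number in the titles ties the tissues of 1 rat together. Kidney was sampled as a small piece, and the labels do not say which zones of the organ a piece held. The assay was TempO-Seq on the Rat S1500+ panel, in which a pair of detector oligonucleotides is ligated on a chosen stretch of a transcript and then amplified and counted.

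The kidney filters plasma in its glomeruli and recovers most of the filtrate along the nephron. The proximal tubule takes up glucose, amino acids, phosphate and filtered protein, secretes organic anions and cations, makes glucose, and is rich in mitochondria and peroxisomes. The thick ascending limb reabsorbs salt and senses calcium, and the collecting duct sets the final water and sodium content of urine under vasopressin and aldosterone.

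Kidney libraries held 12.4 to 42.5 M counts, with a median of 25.5 M. Their profiles correlated with each other at 0.947 to 0.983 (log2 CPM over 2447 tested probes) and with no library of another tissue above 0.742. Levels are in CPM (each count divided by its TMM-adjusted library size, on a common scale). On this scale the levels of a liver library, whose counts were dominated by few transcripts, sum to as much as 7293000 CPM. Between tissues, TMM and plain total counts differed by a median of 2.91 log2 units for kidney against liver, 0.06 against heart, -0.55 against lung and -0.89 against ovary, with total counts placing kidney higher relative to liver and lower relative to lung and ovary. Probes differ in efficiency and some are attenuated, so levels are compared between tissues and not between genes. In pieces of tissue, fewer cells of a type and less RNA per cell cannot be told apart.

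A pair of kidney libraries stood apart in fat markers. Ucp1, the uncoupling protein of brown fat, read 49.03 CPM in 1,2-DCB rat 8 and 49.22 CPM in 1,4-DCB rat 1, and at most 0.408 CPM in the other 17 kidneys. Adipoq, which encodes the fat hormone adiponectin, read 288 and 388 CPM in these kidneys and 16.5 to 55.5 CPM in the others. Cfd, the adipocyte protease adipsin, read 23.3 and 33.9 CPM against at most 5.40 CPM. The highest Adipoq and Cfd of the other kidneys were both those of 1,4-DCB rat 6, at 55.5 and 5.40 CPM. Of the 11 adipocyte probes on the panel, 1 was at 0 in every kidney and the list summed to 1393 to 6324 CPM in kidney. Most of that sum was Pck1, a gluconeogenic gene also on this list, at 1272 to 6218 CPM, so it does not measure fat. The library of 1,4-DCB rat 1 also had the lowest median correlation with other kidneys, 0.955. Leaving out both libraries took 2 probes out of the kidney-high class described next and 2 out of the kidney-low class, and added 1 and 9.

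**Figure D1:**
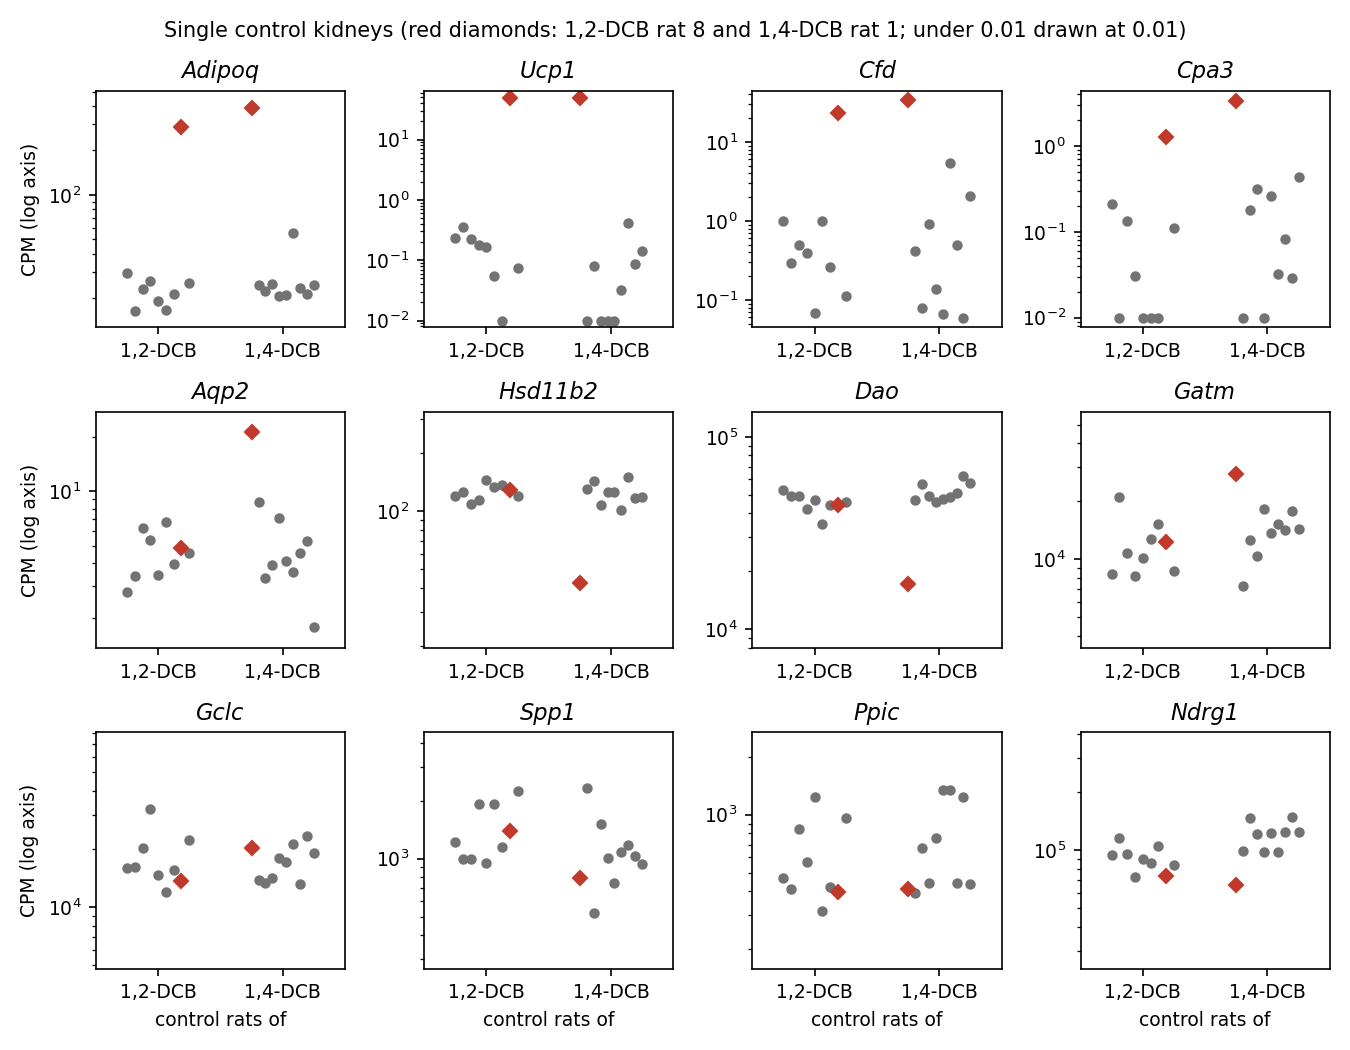
CPM on a log axis of 12 genes in each of the 19 control kidneys, split by the chemical for which the rats served as controls, with 1 point per library and values under 0.01 drawn at 0.01. Red diamonds are 1,2-DCB rat 8 and 1,4-DCB rat 1, which lie above the other 17 kidneys in Adipoq, Ucp1, Cfd and Cpa3, and the latter also lies apart in Dao, Aqp2 and Hsd11b2.

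Most of the panel differed between kidney and the mean of the other tissues. Of 2447 tested probes, 2039 (83.3%) were called at an adjusted p below 0.05 by edgeR's quasi-likelihood test with rat as block, 1035 higher (42.3%) and 1004 lower (41%) in kidney. With total counts in place of TMM the split was 1364 higher and 692 lower. Against single tissues, 1986 probes (81.2%) were called for heart, 1977 (80.8%) for liver, 2103 (85.9%) for lung and 2079 (85%) for ovary. At this background a call alone sets little apart, so probes were classed as kidney-high or kidney-low where kidney was called and differed by a log2 value of at least 1 from each of the 4 tissues.

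By this definition 89 probes with a kidney mean of at least 20 CPM and 48 probes with less were kidney-high (5.6% of those tested together), and 67 probes for 65 genes were kidney-low (2.74%). The kidney-high probes took 31.98 to 39.22% of the counts of a kidney library, with a median of 35.8%, and at most 1.81% in any library of another tissue. These are shares of counts scaled up for attenuation, which applied to 15 of the kidney-high probes. Since the probes were chosen for being high in kidney, a larger share there follows from the choice. Their median log2 difference from the closest tissue was 2.57, also with tissues at 0 set to their bound, and 85 were at least 4-fold and 28 at least 32-fold above every tissue. The tissue with the next highest level was liver for 45, ovary for 38, lung for 32 and heart for 22. Every kidney library lay above every library of the other tissues for 110 kidney-high and 21 other tested probes (5.35% together). Each lay below all others for 24 probes (0.981%), 18 of them kidney-low. Just inside the fold threshold was Ddr1, a collagen receptor, with a smallest log2 difference of 1.01, and just outside it Pxn, the focal adhesion protein paxillin, with 1.00. In all, 312 probes were called higher than each tissue at any fold.

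**Figure D2:**
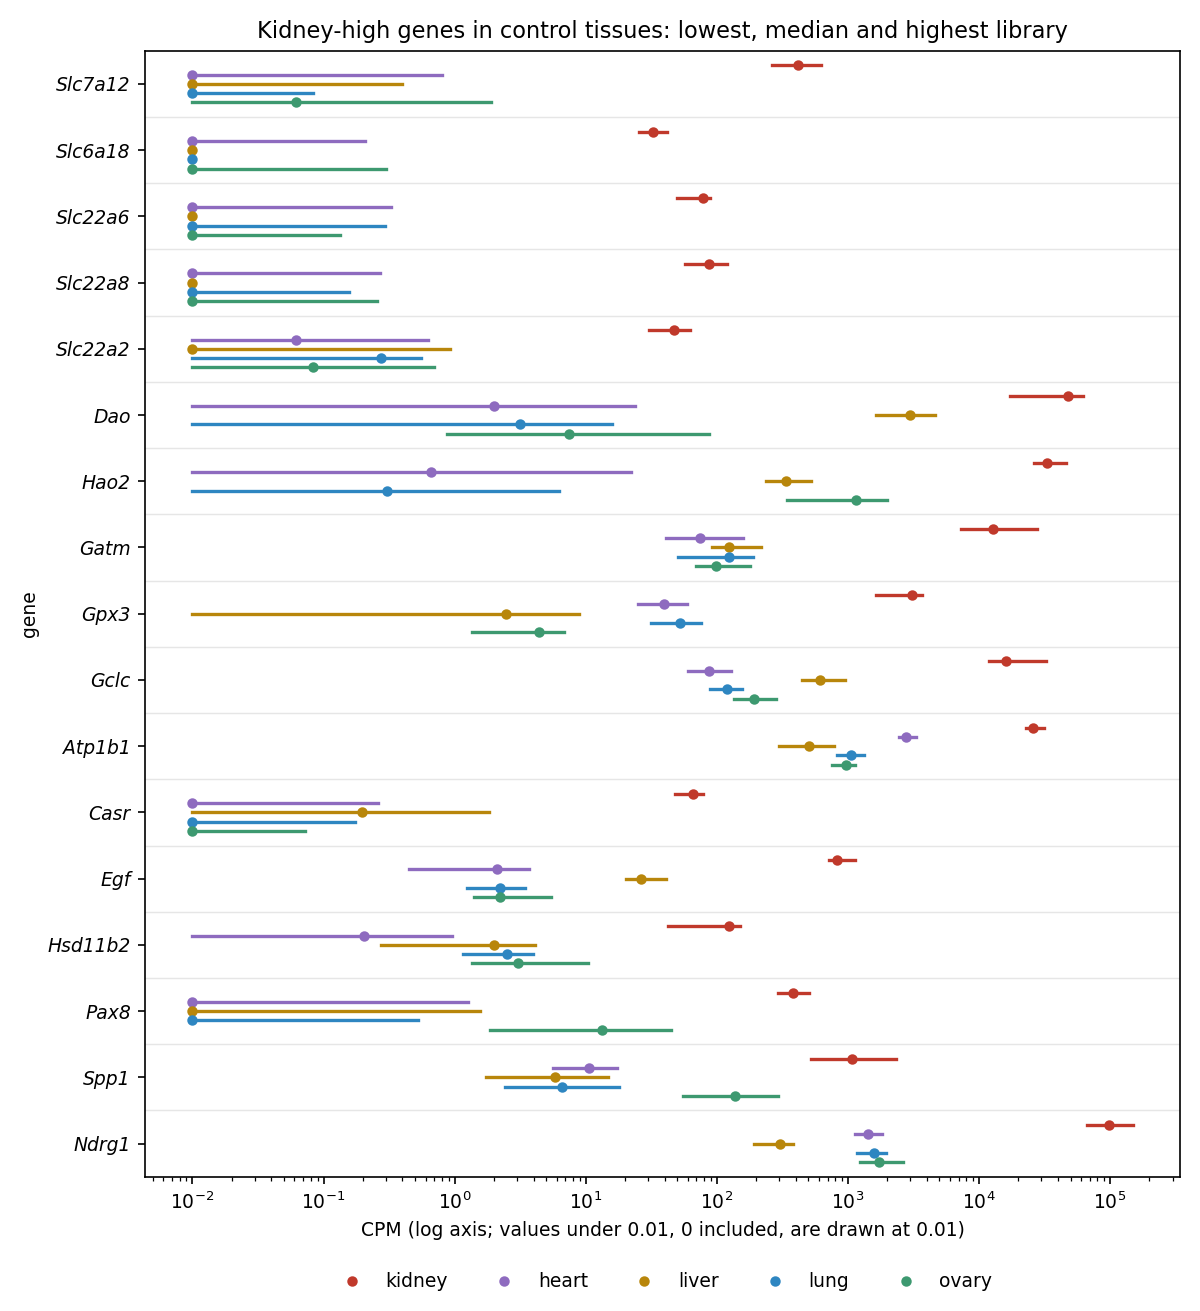
CPM on a log axis of 17 kidney-high genes in 19 kidney, 20 heart, 20 liver, 18 lung and 20 ovary control libraries, with a bar from the lowest to the highest library and a point at the median, and values under 0.01 (0 included) drawn at 0.01. The kidney bar of each gene lies to the right of all other bars.

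Carriers of amino acids and organic ions in the tubule were among the genes with the largest differences. Slc7a12, an amino acid transporter, read 265 CPM in the lowest kidney, 417 in the median and 624 in the highest, and no library of another tissue passed 1.90 CPM. Ovary was the closest tissue, with a log2 difference of 11.43 ± 0.32 (SE; edgeR adjusted p = 1.49e-47). Slc6a18, a neutral amino acid transporter of the proximal tubule brush border, read 25.6, 32.6 and 42.0 CPM in kidney, and had no count in any liver or lung library. Kidney was thus at least 1570-fold above liver and at least 7780-fold above lung, against 3 counts over the group. Its level reached 0.298 CPM in ovary and 0.208 CPM in heart, and the log2 difference from heart, the closest, was 10.37 ± 0.39.

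The uptake carriers for organic anions, Slc22a6 (OAT1) and Slc22a8 (OAT3), which load drugs and toxins from blood into proximal tubule cells, behaved alike in this respect. Slc22a6 read 49.6, 78.6 and 88.8 CPM in kidney, had no count in liver and reached 0.326 CPM elsewhere, in a heart library. Slc22a8 read 56.8, 87.97 and 120.2 CPM in kidney, had no count in liver and reached 0.270 CPM, again in heart. Against 3 counts over the liver libraries, these are differences of at least 3470-fold and at least 4210-fold. Slc22a2 (OCT2), the carrier that brings organic cations into the same cells, read 30.3, 46.9 and 62.4 CPM against at most 0.916 CPM elsewhere, with a log2 difference of 7.49 ± 0.31 from lung. The groups did not overlap for these genes. The carnitine carrier Slc22a5 read 4.19, 10.4 and 20.7 CPM in kidney and at most 1.98 CPM in the other tissues, 3.65 ± 0.23 log2 units above heart. Ust5r, a rat carrier of the same family, read 32.5, 46.7 and 59.2 CPM and at most 1.602 CPM elsewhere.

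Of 22 tested probes for organic ion and drug transporters, 16 were higher and 4 lower in kidney than in the mean, and 5 were kidney-high. Their median log2 difference was 2.24 (2.14 with tissues at 0 at their bound), beside -0.03 over all tested probes. The fifth kidney-high member was the efflux pump Abcg2, with 47.2, 77.1 and 99.7 CPM in kidney. It reached 59.9 CPM in liver, so those groups overlapped, at a log2 difference of 1.199 ± 0.14 (edgeR adjusted p = 4.62e-12). Against liver alone, 12 of the 22 were higher, 8 lower and 2 not called. The liver uptake carriers Slco1a1 and Slco1b2 and the bile salt pump Abcb11 did not pass 1.37 CPM in any kidney, while each had a liver median of at least 343 CPM.

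Proximal tubule genes were nearly all kidney-high. The panel held 11 of 43 listed, all 11 were higher than the mean of the other tissues, 10 were kidney-high, and their median log2 difference was 8.11 (7.77 with tissues at 0 at their bound). The list summed to 53040 to 88770 CPM in kidney and to at most 5638 CPM in any other library, a liver. The exception to the class was Slc2a2, the glucose carrier GLUT2, with 9.77, 23.6 and 42.1 CPM in kidney and 59.95, 133.5 and 155.3 CPM in liver. Mep1b, a subunit of the brush border protease meprin, read 5.89, 11.99 and 14.05 CPM and had no count in heart or liver. Vil1, the microvillus protein villin, read 35.5, 54.8 and 77.3 CPM and reached 6.60 CPM in lung. Slc34a3, a sodium phosphate cotransporter, was measured low, at 0.846, 1.91 and 3.63 CPM in kidney, with no count in heart, liver or ovary.

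Handling of filtered protein formed a group that was put together after its values were seen. All 6 tested genes for endocytosis and lysosomes that were sought were kidney-high. Dab2, the adaptor of the endocytic receptor megalin, read 162, 211 and 272 CPM in kidney and at most 45.3 CPM elsewhere, with a log2 difference of 2.75 ± 0.09 from lung. Lrpap1, the chaperone of that receptor family, read 5499, 7710 and 9721 CPM in kidney and 439.9 to 603.9 CPM in liver, the closest tissue, 3.88 ± 0.06 log2 units lower (edgeR adjusted p = 8.49e-69). Lgmn, the lysosomal protease legumain, read 965, 1374 and 1541 CPM and at most 205.3 CPM elsewhere. Igf2r and Sorl1, which are sorting receptors, and Lamp1, a lysosomal membrane protein, exceeded the closest tissue by log2 values of 1.62, 1.26 and 1.06. Both tested brush border peptidases were kidney-high, Mep1b and Dpp4, the latter with 1140, 2433 and 2953 CPM in kidney and 487 to 802 in liver.

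Peroxisomal oxidases that act on amino and hydroxy acids were far above other tissues. Dao, D-amino acid oxidase, read 17190, 47720 and 62660 CPM in kidney. Liver held 1654 to 4617 CPM, heart, lung and ovary at most 87.7 CPM, and the log2 difference from liver was 3.88 ± 0.41 (edgeR adjusted p = 2.68e-14). Hao2, a hydroxyacid oxidase, read 26290, 33170 and 46540 CPM, with ovary next at 347 to 1974 CPM and 4.79 ± 0.55 log2 units lower. Neither overlapped with any other tissue. Acy3, an aminoacylase that deacetylates mercapturic acids, read 1541, 1906 and 2470 CPM in kidney and 124.3 to 264.6 CPM in liver. Agxt2, a mitochondrial aminotransferase that also breaks down dimethylarginines, read 1487, 1990 and 2430 CPM in kidney and 392.02 to 697.6 CPM in liver. Acmsd, which diverts tryptophan breakdown away from NAD synthesis, read 2.05, 3.01 and 5.31 CPM and at most 0.582 CPM elsewhere.

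Gatm and Gamt, the enzymes of creatine synthesis, went in opposite directions between kidney and liver. Gatm, the amidinotransferase of its initial step, read 7271, 12780 and 27780 CPM in kidney and at most 219 CPM elsewhere, 6.61 ± 0.15 log2 units above liver (edgeR adjusted p = 1.02e-53). Gamt, the methyltransferase of the final step, read 45.3, 57.1 and 67.9 CPM in kidney and 440, 637 and 756 CPM in liver, a log2 difference of -3.48 ± 0.09. Total counts place kidney higher against liver by a median of 2.91 log2 units, so the size of this difference depends on the scaling. Ovary held 54.5, 78.9 and 152.8 CPM of Gamt. The creatine carrier Slc6a8 was kidney-high at 9.40, 15.3 and 19.7 CPM, with heart next at 3.63 to 7.31. Serine synthesis, also grouped after its values were seen, had both tested enzymes kidney-high. Psat1 read 204.9, 286.0 and 409.2 CPM against at most 16.83 CPM elsewhere, and Phgdh 2.83, 7.26 and 13.5 CPM against at most 2.07.

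Of all 27 tested probes for amino acid metabolism, 22 were higher and 3 lower than the mean and 6 were kidney-high, with a median log2 difference of 4.97. Against liver the order was mostly the opposite, with 8 higher, 15 lower and 4 not called. The urea cycle genes Cps1 and Otc did not pass 4.14 CPM in any kidney, where liver medians were 592 and 790 CPM. Ass1, which makes the arginine precursor argininosuccinate, was shared, at 327, 542 and 700 CPM in kidney and 655, 933 and 1124 CPM in liver. With total counts in place of TMM, 18 of the 27 were kidney-high, since that scaling lowers liver.

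Genes of glucose production were high in both kidney and liver. All 12 tested genes of gluconeogenesis and fructose use were higher in kidney than in the mean (median log2 difference 4.01), yet against liver 2 were higher, 3 lower and 7 not called. Pck1, the cytosolic enzyme that commits carbon to glucose, read 1272, 2139 and 6218 CPM in kidney and 182, 2039 and 6593 CPM in liver, with medians of 5.78 CPM or less elsewhere and a kidney minus liver difference of 0.25 ± 0.38 (edgeR adjusted p = 0.544). Fbp1, fructose bisphosphatase, read 312, 407 and 555 CPM in kidney and 252, 307 and 377 CPM in liver. Khk, fructokinase, read 262, 362 and 450 CPM in kidney and 265, 352 and 428 CPM in liver. The 2 kidney-high members were low in level: the mitochondrial enzyme Pck2 at 3.49, 5.10 and 6.76 CPM, with ovary up to 3.67, and the fructose carrier Slc2a5 at 2.00, 3.64 and 8.15 CPM, with liver up to 2.61. Total counts made 10 of the 12 kidney-high, but not Pck2.

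Transcription factors of the tubule were in part also present in liver. Pax8, a factor of kidney and thyroid development, was the kidney-high member of the 4 tested, with 292, 382 and 509 CPM. Ovary reached 45.1 CPM, 5.07 ± 0.30 log2 units lower, and no library of the other tissues passed 1.57 CPM. Hnf4a read 174, 222 and 244 CPM in kidney and 170.6, 216.3 and 302.1 CPM in liver. Kidney minus liver was -0.08 ± 0.20 for Hnf4a (edgeR adjusted p = 0.727). Nr1h4, the bile acid receptor FXR, was lower in kidney than in liver by a log2 difference of -1.06 ± 0.15. With total counts all 4 were kidney-high.

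Genes of lipid and xenobiotic metabolism went in both directions. Over all tested probes 42.3% were higher, 41% lower and 5.6% kidney-high. Of 30 probes for fatty acid oxidation and ketone metabolism, 19 were higher and 7 lower in kidney, with 6 kidney-high and 1 kidney-low and a median log2 difference of 0.47. Of 31 cytochrome P450 probes, 10 were higher and 12 lower, neither share above that of all tested probes. In this list 5 were kidney-high, 3 of them probes of Cyp4a2, and the median was -0.72. The kidney-high members were mostly fatty acid omega-hydroxylases of the Cyp4a family. Cyp4a8 read 3008, 5549 and 9117 CPM in kidney and at most 14.6 CPM elsewhere. The most abundant Cyp4a2 probe read 1523, 2671 and 3557 CPM, with liver at 604.2 to 1118 CPM. Both other Cyp4a2 probes were kidney-high at far lower level, up to 18.5 CPM, and had no count in any liver library. The Cyp4a2 probes thus disagreed on liver, with kidney minus liver at 1.53 log2 units for the abundant probe and 10.87 and 10.35 for the others. The sources used here do not state whether these probes separate the close Cyp4a paralogs. Cyp1a1 was kidney-high at 0.595, 1.28 and 2.77 CPM, against at most 0.369 CPM elsewhere.

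Acsm3 and Glyat are named for their size of difference and Acot1 as a member of the fatty acid list, of which 24 of 30 probes were not kidney-high. Acsm3, a medium-chain acyl-CoA synthetase, read 184, 289 and 357 CPM in kidney, 20.3 CPM at most in ovary and 7.73 at most in liver. Glyat, which joins acyl groups to glycine for excretion, read 277, 363 and 476 CPM in kidney and 98.02 to 194.0 CPM in liver, 1.36 ± 0.21 log2 units lower. Acot1, an acyl-CoA thioesterase, read 49.2, 76.5 and 95.4 CPM in kidney and up to 43.7 CPM in ovary. The sulfotransferase Sult1c2 read 113.8, 176.6 and 239.9 CPM in kidney and at most 0.791 CPM elsewhere, and its near copy Sult1c2a 194, 334 and 399 CPM, with liver at 8.62 to 19.4. Reads of such copies may be split by the probes, so each value is uncertain as to the member.

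Glutathione genes were represented by both subunits of the enzyme that limits its synthesis. Gclc, the catalytic subunit, read 11920, 16060 and 32330 CPM in kidney and 448 to 960 CPM in liver, the closest tissue, 4.75 ± 0.11 log2 units lower (edgeR adjusted p = 7.17e-54). Gclm, the modifier subunit, read 175, 252 and 394 CPM in kidney and at most 34.8 CPM elsewhere. Gsr, the reductase, read 8.71, 11.34 and 14.97 CPM and at most 7.14 CPM elsewhere, and Gpx3, the peroxidase that the tubule secretes into plasma, read 1651, 3105 and 3689 CPM and at most 75.3 CPM. No group overlapped. Of 7 tested genes of glutathione use grouped after their values were seen, these 4 were kidney-high, and the 3 others, Gpx1, Gpx2 and Gpx4, had their maximum median in liver, lung and heart. In the whole conjugation and glutathione list of 29 probes, 19 were higher and 6 lower (median log2 difference 1.13), with 5 kidney-high and 1, Gstm2, kidney-low.

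The sodium pump, which drives reabsorption along the whole nephron, was represented by its beta subunit Atp1b1. It read 22980, 25840 and 31460 CPM in kidney and 2462 to 3335 CPM in heart, the closest tissue, 3.25 ± 0.08 log2 units lower (edgeR adjusted p = 5.96e-53). Fxyd1, a regulator of the pump in muscle, was not kidney-high, at 0.286 to 1.62 CPM. These genes were also put together after their values were seen.

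Later nephron segments had few probes. Both tested genes of the thick ascending limb were kidney-high. Egf, the growth factor made by this segment and released into urine, read 718, 830 and 1126 CPM in kidney and 20.3 to 41.3 CPM in liver, 5.01 ± 0.15 log2 units lower. Casr, the calcium-sensing receptor, read 48.31, 65.99 and 78.01 CPM and at most 1.84 CPM elsewhere. Of 4 tested collecting duct genes, all were higher than the mean and 3 were kidney-high. Hsd11b2, which shields the mineralocorticoid receptor from glucocorticoids, read 42.46, 124.98 and 149.7 CPM in kidney and reached 10.4 CPM in ovary. Gata3, a transcription factor of the collecting duct, read 38.8, 47.5 and 76.3 CPM in kidney and 8.76 to 27.7 CPM in lung, 1.40 ± 0.12 log2 units lower, and was not kidney-high with total counts.

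Aqp2, the water channel that vasopressin inserts, read 1.77, 4.57 and 21.1 CPM in kidney, with no count in liver and at most 0.437 CPM elsewhere. The highest value was that of 1,4-DCB rat 1, and without it and 1,2-DCB rat 8 the range was 1.77 to 8.77 CPM. In 1,4-DCB rat 1 Hsd11b2 was at its lowest, 42.5 CPM against 101.7 to 149.7 CPM in the 17 kidneys other than this pair. Krt7, a keratin of ducts and lung epithelium, read 250, 317 and 442 CPM in kidney and 567 to 1014 CPM in lung. Pvalb, the single probe for the distal convoluted tubule, did not pass 0.0396 CPM in any kidney, and no podocyte gene of the 12 listed was among the probes analysed here.

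Ndrg1, a gene linked to differentiation and induced by hypoxia, alone took 9.41 to 17.3% of the counts of a kidney library, with a median of 12.3%, and its counts are scaled up by 10 for attenuation. It read 66280, 97970 and 149100 CPM in kidney and 1249 to 2618 CPM in ovary, the closest tissue, 5.85 ± 0.10 log2 units lower (edgeR adjusted p = 9.26e-63). Of 19 probes for hypoxia and glycolysis, 9 were higher and 4 lower (median log2 difference 0.14) and Ndrg1 was the kidney-high member. Over all tested probes 42.3% were higher, 41% lower and 5.6% kidney-high. The hypoxia-induced carbonic anhydrase Car9 was kidney-low, at up to 0.385 CPM in kidney.

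Among 22 probes for kidney injury markers, 5 were higher and 16 lower in these control kidneys (median log2 difference -1.03). For this list and those below, the shares among all tested probes were 42.3% higher and 41% lower. Spp1, osteopontin, was the kidney-high member, with 522, 1080 and 2324 CPM in kidney and 55.1 to 292 CPM in ovary, 3.21 ± 0.20 log2 units lower. Hmox1, heme oxygenase 1, was kidney-low at 13.7, 19.9 and 38.3 CPM, with heart next at 32.01 to 63.53 CPM and a log2 difference of -1.19 ± 0.12. Cdkn1a, the cell cycle inhibitor p21, was kidney-low at 0.275 CPM or less, but not in the 1,2-DCB controls alone. Mitochondrial respiration had 9 of 11 probes higher than the mean and none lower, and none was kidney-high because all 11 were lower than in heart. Cell cycle genes had 5 of 32 higher and 20 lower (median -0.74), and matrix and fibroblast genes 4 of 25 higher and 17 lower (median -0.80).

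The remaining kidney-high genes named by size were Tinag and Spink1. Tinag, a basement membrane protein of tubules, read 19.4, 27.5 and 32.6 CPM in kidney, had no count in liver and reached 0.428 CPM in heart. Spink1, a secreted trypsin inhibitor, read 18.8, 54.9 and 85.3 CPM in kidney, up to 7.14 CPM in liver and had no count in lung. The groups did not overlap for either gene.

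**Figure D3:**
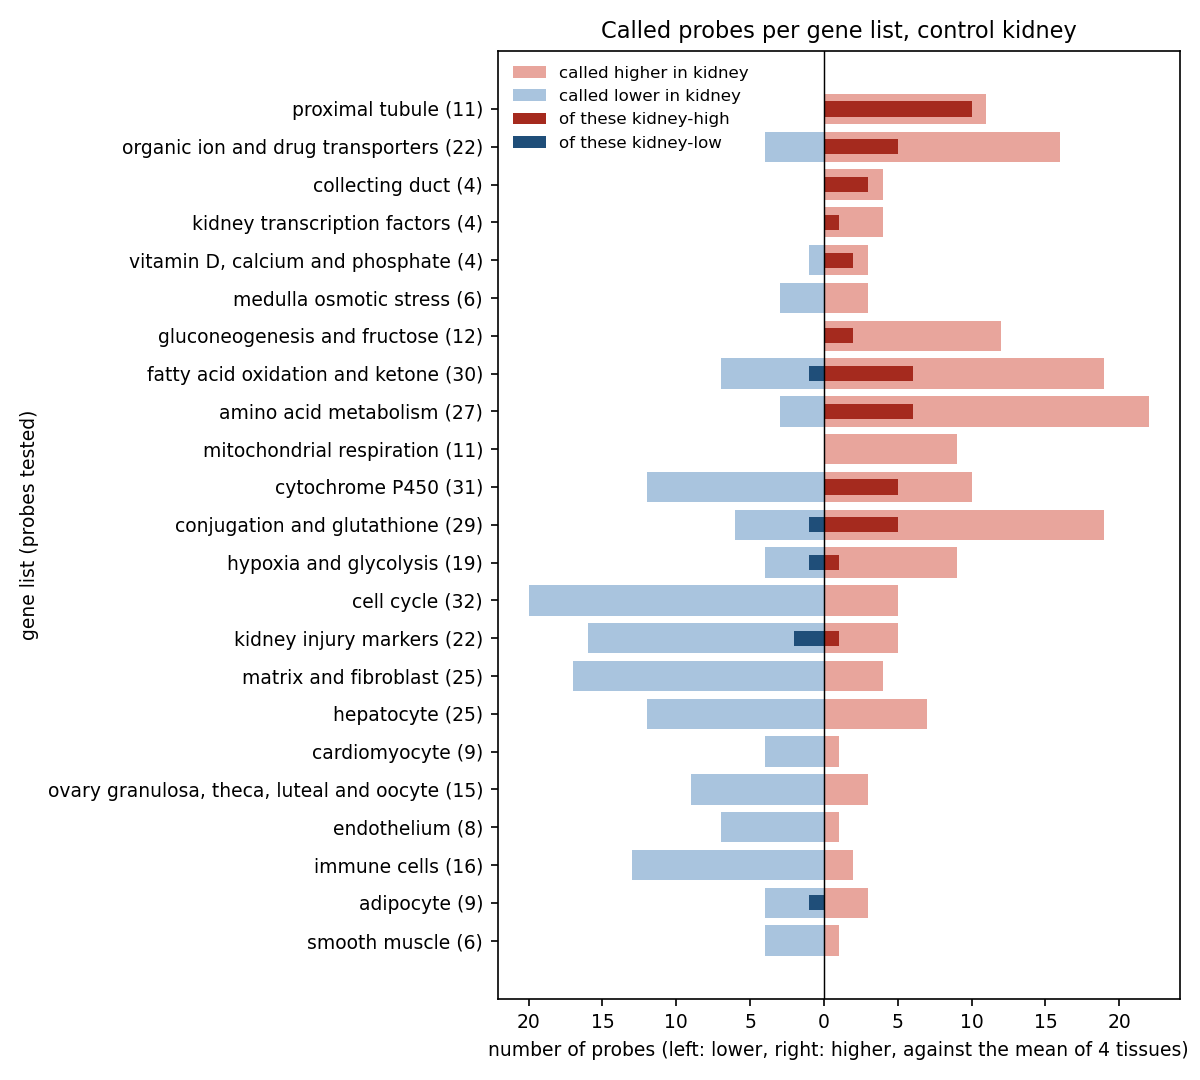
Number of probes per gene list called higher (right, light red) or lower (left, light blue) in control kidney than in the mean of heart, liver, lung and ovary, with the kidney-high (dark red) and kidney-low (dark blue) probes inside the bars and the number tested in brackets, for lists with at least 4 tested probes. In the proximal tubule list 10 of 11 were kidney-high, while in the cell cycle list 20 of 32 were lower and none was kidney-low.

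Kidney-low genes were fewer and closer to the other tissues, with a median log2 difference of -1.504 from the closest, which was ovary for 22, heart for 20, liver for 15 and lung for 10. Vtn, the plasma and matrix protein vitronectin, read 0, 0.341 and 1.85 CPM in kidney, where the lowest library of another tissue, an ovary, had 5.20 CPM, a log2 difference of -4.35 ± 0.23. Cebpb, a transcription factor of inflammation and liver, read 39.4, 49.75 and 118.2 CPM in kidney and at least 202.96 CPM in every other library. Socs2, a brake on growth hormone signalling, read 34.98, 49.49 and 78.24 CPM in kidney and at least 109.8 CPM elsewhere.

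Of 16 tested probes of the immune cell list none was kidney-low, although 13 were lower and 2 higher (Itgax and Cd74) than the mean. Outside that list, a few genes of macrophages and mast cells and a ficolin gene were kidney-low. Mrc1, the macrophage mannose receptor, read 0, 0.820 and 1.596 CPM in kidney and at least 6.64 CPM elsewhere, -3.53 ± 0.17 log2 units from ovary. Fcn1, a ficolin with its highest median in liver (84.5 CPM), read 0.0661, 0.481 and 4.04 CPM in kidney and at least 3.88 CPM elsewhere. It overlapped through 1,2-DCB rat 8 at 4.04 CPM, and 1,4-DCB rat 1 had 3.68 CPM, while the other 17 kidneys did not pass 1.68 CPM. Of 7 tested mast cell genes, grouped after their values were seen, 5 were kidney-low (Cpa3, Cma1, Fcer1a, Hdc and Slc18a2) and 2 were not (Kit and Gata2). Some of these calls lie near the floor. Slc18a2 had a median of 0 CPM in kidney, liver and ovary alike. The median of Hdc was 0.251 CPM in heart and that of Fcer1a 0.280 CPM in ovary. Cpa3, a mast cell carboxypeptidase, read 0, 0.0816 and 3.36 CPM in kidney against medians of 1.21 in ovary to 18.7 in lung, and again the highest kidneys were the same pair, at 1.26 and 3.36 CPM against at most 0.430 CPM. The part of these libraries in the kidney values was not tested, but Fcn1 was kidney-low with and without them.

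The other named kidney-low genes had a mixed background. Hrc, a calcium-binding protein of the sarcoplasmic reticulum, read 3522 CPM or more in heart and 0.122 to 2.02 CPM in kidney. Kidney overlapped with lung and ovary, and it was not kidney-low in the 1,2-DCB controls alone. Ndrg2, a relative of Ndrg1, read 1.44, 2.65 and 4.90 CPM in kidney and 3.35 to 14.1 CPM in ovary. Pla1a, a phospholipase, read 1.81, 2.60 and 4.87 CPM in kidney and at least 9.39 CPM elsewhere, and the unnamed locus LOC100910669 4.56, 6.70 and 8.59 CPM against at least 22.1. Gstm2, a glutathione transferase, read 11.9, 17.7 and 25.6 CPM and at least 33.7 CPM elsewhere. Cfd was kidney-low with a kidney median of 0.416 CPM, but not without the rat block. With total counts, which raise the level of kidney against liver and heart, 17 probes were kidney-low, 15 of them among the 67. Among the genes named here, Hrc, Pla1a, LOC100910669, Gstm2, Cebpb, Hmox1, Car9, Cdkn1a and Cfd were not kidney-low with total counts, while Vtn, Socs2, Mrc1, Fcn1 and Ndrg2 were.

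**Figure D4:**
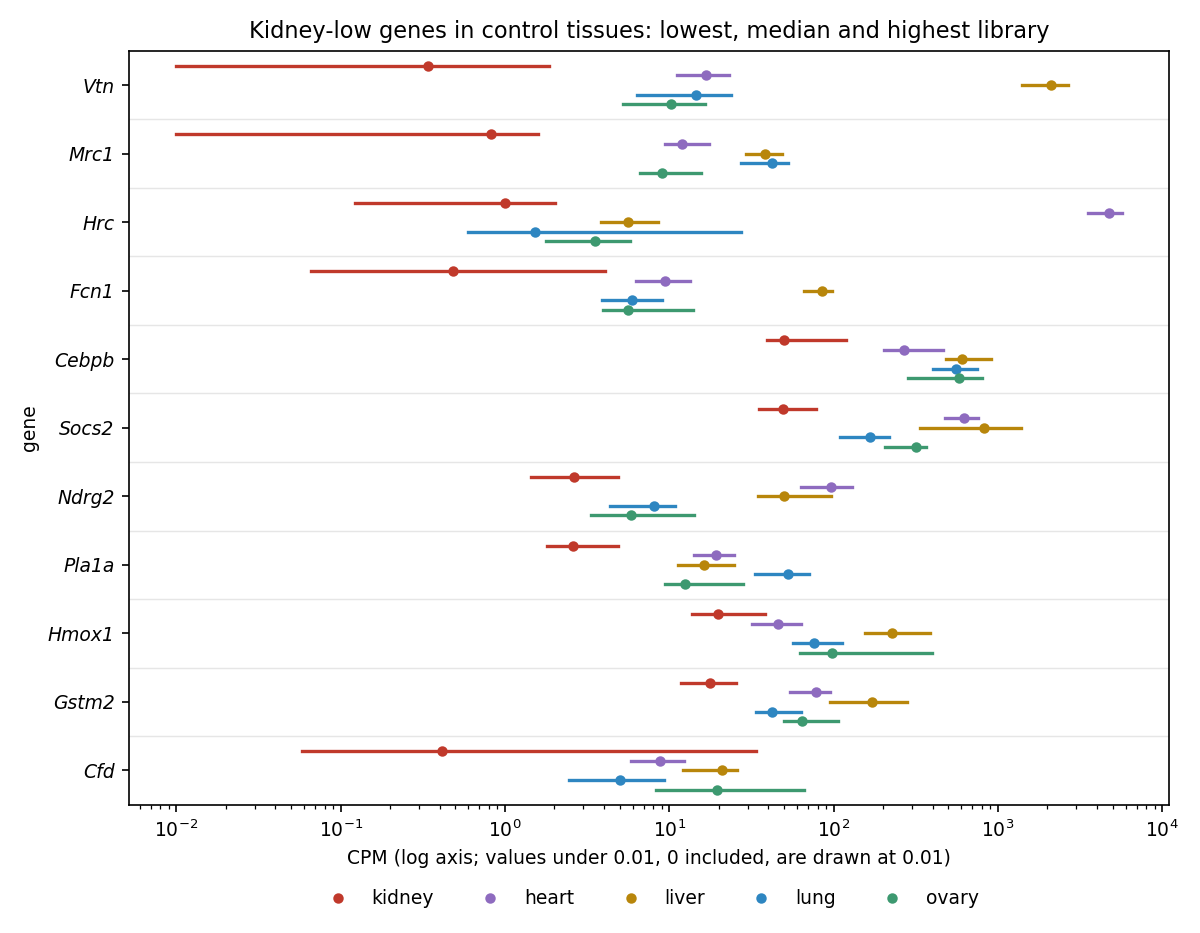
CPM on a log axis of 11 kidney-low genes in 19 kidney, 20 heart, 20 liver, 18 lung and 20 ovary control libraries, with a bar from the lowest to the highest library and a point at the median, and values under 0.01 (0 included) drawn at 0.01. Kidney medians lie to the left of the medians of all other tissues, and for Hrc, Fcn1, Ndrg2, Hmox1 and Cfd the kidney bar overlaps another.

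Summed markers of hepatocytes, cardiomyocytes and ovary were far lower in kidney than in the tissue they mark. Single members were higher than the mean. The hepatocyte sum still had a median of 6861 CPM in kidney, against 1688 in heart, 2999 in lung and 2662 in ovary. Its largest members in kidney were Amacr, Fga, Cyp2e1 and Tf, with medians of 3847, 1104, 1041 and 717 CPM. The immune cell sum had 1298 CPM in kidney, 699 in heart, 630.5 in liver, 778.7 in ovary and 40570 in lung. In kidney it was mostly Lyz2 and Cd74, with medians of 624 and 619 CPM. These sums thus rest on few members and do not measure cell content. Median sums of adipocyte, endothelial, smooth muscle and red cell markers lay between those of the other tissues. The adipocyte sum in kidney was mostly Pck1, with a median of 2139 CPM. Alb, albumin, read 4.72 to 602.7 CPM across the kidneys, at most 0.108% of the liver median, and the hepatocyte list summed to 5313 to 10310 CPM, against 3414000 CPM or more in liver. Of its 26 probes, 1 was at 0 in every kidney and 11 had a kidney median below 1 CPM. Of the 25 tested, 12 were lower and 7 higher than the mean, and none was kidney-high. For these counts and those below, the shares among all tested probes were 41% lower and 42.3% higher. The lower shares of the hepatocyte, cardiomyocyte and adipocyte lists were near that. Cardiomyocyte probes summed to at most 2.11 CPM in any kidney, with 2 of 9 at 0 in all of them, and those of adrenal gland to at most 0.865 CPM. The ovary list summed to at most 92.1 CPM in kidney and to 4294 CPM or more in ovary. Of its 15 tested probes 9 were lower and 3, Cyp11a1, Prlr and Fst, higher than the mean. The cardiomyocyte list had 4 of 9 lower and 1 (Myl3) higher, and the adipocyte list 4 of 9 lower and 3 (Adipoq, Cidec and Pck1) higher. Of 8 endothelial probes 7 were lower and 1 (Vwf) higher, and of 3 red cell probes all 3 were lower.

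The spread between kidneys was measured within each set of control rats. Over the 89 kidney-high probes with a kidney mean of at least 20 CPM, the median SD of log2 CPM was 0.231, beside 0.191 for all 971 tested probes at that level. Ppic, a cyclophilin, varied most, from 315 to 1346 CPM (4.28-fold) with an SD of 0.712. Spp1, Spink1 and Gatm followed with 0.532, 0.495 and 0.482. Ddr1 varied least, with 0.102. These genes were singled out by their spread, after values were seen.

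The kidney pattern was also compared between the 2 sets of control rats. The kidney difference from the other tissues had 0 of 2447 probes called between sets (0%; smallest edgeR adjusted p = 0.132) and 169 at an unadjusted p below 0.05, while DESeq2 called 6 and limma voom 1, with 177 and 218 unadjusted. Kidneys compared directly had 0 of 2164 probes called (0%) and 5.22% at an unadjusted p below 0.05, and DESeq2 and voom called 0 with 5.96% and 5.31% unadjusted. Vwf, the von Willebrand factor of endothelium, had the smallest p of the former comparison among probes whose average over the 97 libraries was 20 CPM or more, with 232 ± 53.4 CPM (SD, n = 9) in 1,2-DCB controls and 174.1 ± 27.04 CPM (n = 10) in 1,4-DCB controls and an edgeR adjusted p of 0.286. In the direct comparison the gluconeogenic Pck1 read 1902 ± 518 and 2894 ± 1281 CPM (adjusted p = 0.744), and Aldh7a1, an aldehyde dehydrogenase of lysine breakdown, 2744 ± 189.6 and 3325 ± 382.8 CPM (adjusted p = 0.543). Fitted in each set alone, all but 11 of the kidney-high and all but 24 of the 67 kidney-low probes were so classed in both.

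Whether pieces with more proximal tubule signal held less collecting duct signal was examined across the 19 kidneys, as 1 of 3 relations between segment lists. The sums rest on few probes: Dao and Gatm, both scaled up for attenuation, made up 84.8 to 90.9% of the proximal tubule sum, and Krt7 58.5 to 71.7% of the collecting duct sum. Log2 summed CPM of the proximal tubule and collecting duct lists had a Pearson r of -0.259 (permutation p = 0.285, BH adjusted 0.506) and a Spearman rho of -0.298 (permutation p = 0.215, adjusted 0.645). Within the 1,2-DCB and 1,4-DCB controls r was -0.573 and -0.064, and without the 2 kidneys farthest from the median it was -0.514. With total counts r was -0.544 (permutation, adjusted p = 0.0483), and with the mean of log2 CPM, which weights members equally, it was -0.547. Spearman rho for the mean of log2 CPM was -0.458 (permutation, adjusted p = 0.151). The call thus depended on scaling, on the weight of members and on the measure of correlation. Proximal tubule and thick ascending limb had r = -0.036 (permutation, adjusted p = 0.884), and collecting duct and thick ascending limb r = -0.231 (permutation, adjusted p = 0.506).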

How the data were processed

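TempO-Seq data of the Rat S1500+ panel were deposited by the authors as raw read counts per probe after adjustment for attenuation, in which counts of diluted probes are multiplied back up. In the table of 2654 probes and 399 libraries, 104 probes held whole multiples of a step of 3 to 10. Alignment used Bowtie 1.3.1, per the submitters' processing notes. Settings, probe sequences and build: not given in the sources used here. Assignment to groups came from the labelled tissue, compound, concentration and status, and rat from compound and animal number in the title. The rats are separate animals. With rat as block, p-values of tissue contrasts rest on how the tissue differences vary between rats. Those of comparisons among kidneys alone rest on the spread between animals.

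Counts of the 97 libraries entered 1 fit in R 4.3.3 with edgeR 4.0.16 (TMM, filterByExpr by tissue, robust quasi-likelihood fit, rat as block), with kidney contrasted with the mean of 4 tissues and with each. Benjamini-Hochberg adjusted p below 0.05 over 2447 tested probes was the threshold. CPM are of TMM-scaled library sizes, and log2 CPM used a prior count of 2. Folds against a tissue without counts are bounds from 3 counts over its libraries. The pairing of tissues comes from the labels; deviations from tissue means correlated within a rat at a mean of 0.063 to 0.075. Reads carry no molecular identifiers here, so depth bounds counting error only. On simulated data all 99 probes raised by a log2 of 3 were recovered and 0 of 2064 unchanged probes were classed. Such a difference lies well beyond the threshold of 1, so these counts do not show how differences near the threshold are classed.

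Named were, with 1 probe per gene, the 16 kidney-high probes farthest above the mean of the others with a kidney mean of at least 20 CPM, the 8 with the highest kidney mean, the 10 kidney-low probes with the largest fall and at least 20 CPM elsewhere, up to 4 kidney-high or kidney-low members per list and the members behind counts of 5 or fewer. Other genes named were chosen after their values were seen, and the results of some genes and a promoter motif are not reported here. Members and lists were chosen with earlier results of these data known. Alternatives were limma voom (limma 3.58.1), DESeq2 1.42.0, its size factors, total counts, filters, fold thresholds, no block, each control set alone, the 3 marked libraries included, attenuation undone and each rat left out. Relations across kidneys used permutation tests with 100000 resamples (SciPy 1.17.1).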

Additional observations from a re-analysis of the deposited data

Results flagged for a closer look

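In 42 groups of kidney values (21 named genes in 2 sets of controls), Dixon's criterion set 3 single libraries apart, where chance sets apart about 1 in 20 groups. Dao read 17190 CPM in the kidney of 1,4-DCB rat 1, where the next lowest of the 10 kidneys had 46100 CPM. Gatm read 27780 CPM in the same kidney, where the next highest had 18200 CPM. That library also held raised Ucp1, Cfd and Adipoq, and the part of these in the values was not tested. Gclc read 32330 CPM in the kidney of 1,2-DCB rat 4, where the next highest of the 9 kidneys had 22190 CPM.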

How the results depend on the processing

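Leaving out each rat gave 2013 to 2035 probes called against the mean, 5.52 to 5.76% of tested probes kidney-high (5.6% in all), 64 to 74 kidney-low and 0 to 2 for the difference between control sets. Without the replicate block (the unpaired fit) these were 2019, 5.52%, 65 and 1. A filter at a mean of 20 CPM, which tests fewer probes, left 1107 called against the mean (567 higher and 540 lower), 1092 against heart, 1113 against liver, 1126 against lung and 1112 against ovary, with 63 kidney-high and 28 kidney-low. Total counts gave 8.3% of tested probes kidney-high (110 shared, 27 lost and 93 added), 17 kidney-low probes and 5 with every kidney lowest. A fold threshold of log2 2 gave 85 kidney-high and 17 kidney-low, one of log2 0.58 gave 1.2e+02 kidney-low, and a test against the fold itself (glmTreat) 41. DESeq2 called 6 probes between control sets and voom 1. By Pearson r, the relation of proximal tubule and collecting duct sums passed the threshold with total counts (r = -0.544) and with mean log2 CPM (r = -0.547). It did not pass without 1,2-DCB rat 8 and 1,4-DCB rat 1 (r = -0.515, permutation, adjusted p = 0.104). Spearman rho passed with total counts (permutation, adjusted p = 0.0156) but not with mean log2 CPM (rho = -0.458, permutation, adjusted p = 0.151). The cause was not tested. All 1772 recomputed values of single named genes (their difference from the mean of the other tissues) kept direction and call, while 20 counts of list members moved, by total counts, the filter, a single control set or the block, and 556 did not. Kidney-high calls were held under every alternative but total counts and the filter by all but 11 probes, and kidney-low calls by 40 of 67. For 27 genes with several probes, the probes differed by a median of 0.415 log2 units and had opposite signs in 3. Depth limits statements on low genes: 23 kidney-high probes had a kidney mean under 5 CPM.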

Other observations

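Some genes known from hepatocytes were well above heart, lung and ovary in kidney while others were not, and these were noticed after values were seen. Fga, the fibrinogen alpha chain, had a kidney median of 1104 CPM (720 to 1975), against medians of 5.38 in heart, 3.72 in lung and 5.30 in ovary, and 577900 in liver. Kidney minus heart was 5.75 ± 0.68 log2 units for Fga, with an edgeR adjusted p of 2.82e-12. The beta chain Fgb had a kidney median of 0.490 CPM and the gamma chain Fgg of 50.7 CPM, beside 37.6 in heart and 1305 in lung. The prothrombin gene F2 had a kidney median of 22.4 CPM (11.4 to 31.7) and at most a median of 0.929 in heart, lung and ovary. Alb varied more between kidneys, from 4.72 to 602.7 CPM, than Fga did.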
